A study of Mus musculus with 10 samples.

Results

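The loss of Hand2 from the cranial neural crest was examined in the mandibular prominence (MNP), the part of the first pharyngeal arch that forms the lower jaw and contributes to the tongue. Polyadenylated RNA from MNPs of CD1 mouse embryos at embryonic day 10.5 was sequenced. The comparison held 5 of the 10 samples of the series: 3 libraries of Hand2 f/f; Wnt1-Cre+ embryos (Hand2 cKO 1, 2 and 3) and 2 of wild-type embryos (WT 3 and WT 4). They were chosen by their genotype labels, and all other samples were left out of the fit. Wnt1-Cre is a transgene in which the Wnt1 promoter drives Cre recombinase in the dorsal neural tube and the neural crest that leaves it. Epithelium, mesoderm, the endothelium of vessels and blood are therefore not targeted. No label gives Wnt1-Cre to the wild-type embryos, so a change due to the transgene and a change due to the loss of Hand2 cannot be told apart. The sources used here do not say if 1 embryo or several went into a library, and p-values measure only the spread between these libraries.

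Hand2 is a basic helix-loop-helix (bHLH) transcription factor. It dimerises with E-proteins such as Tcf3, Tcf4 and Tcf12 and binds E-boxes, short DNA words of the form CANNTG. Endothelin 1 from the arch epithelium and core acts on its receptor Ednra in crest cells and turns on Dlx5 and Dlx6, which in turn activate Hand2 in the distal part of the arch. Hand2 is known to hold the distal mandibular domain and to keep intermediate, joint-forming and bone programmes out of it. The comparison asks which genes of the MNP depend on Hand2.

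The libraries held between 21420197 and 53326697 estimated counts. Of 33641 gene symbols, 13601 had at least 1 CPM (a count scaled to a fixed library total) in 2 or more of the 5 libraries and were tested. Hand2 cKO 2 stood apart: its levels fell with transcript length, with a slope of -0.333 on the log2 scale for each doubling of length, whereas the slopes of the other 4 libraries lay between 0.0124 and 0.156. Transcripts of Y-linked genes (Ddx3y, Uty, Kdm5d and Eif2s3y) reached a sum of 184 CPM in WT 4, of 118 CPM in Hand2 cKO 2 and of between 3.66 and 5.04 CPM in the other 3 libraries. Haemoglobin transcripts made up 1.26% of the counts of WT 4 and between 0.264% and 0.712% of the others. The main results are therefore given also without Hand2 cKO 2.

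**Figure D1:**
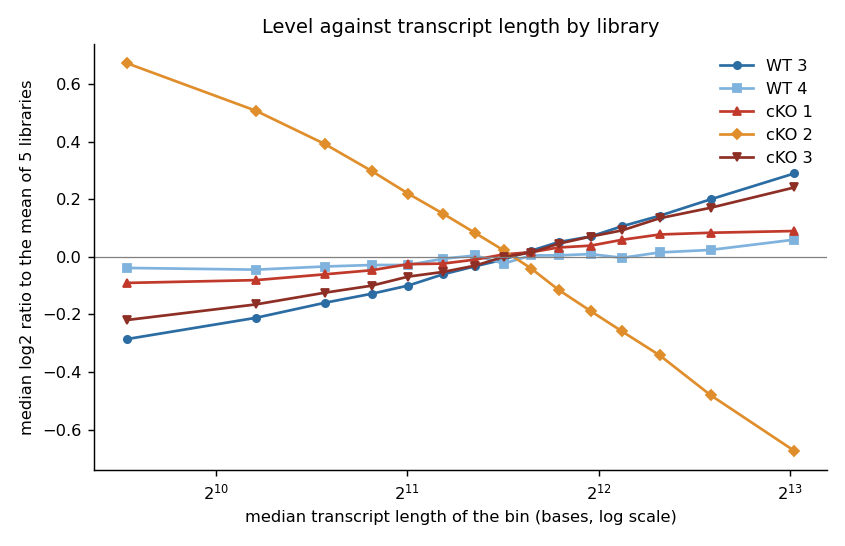
Median log2 ratio of each library to the mean of the 5 libraries (y axis) in 15 bins of genes by transcript length (x axis, bases, log scale). Hand2 cKO 2 runs from above to below 0 as length rises, with a slope of -0.333 per doubling, and the other 4 libraries run slightly upwards.

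The deleted gene itself measured 174 and 211 CPM in WT 3 and WT 4 and 13.3, 24.8 and 15.5 CPM in Hand2 cKO 1, 2 and 3. Hand2 (chr8:57320983-57324633, plus strand, mm10) was thus at 9.30% of its WT mean, and the groups did not overlap. Its log2 fold change was -3.43 ± 0.30 (SE, 95% interval -4.17 to -2.69, n = 2 WT and 3 Hand2 cKO; adjusted p = 0.0584 by edgeR's quasi-likelihood test) and -3.74 without Hand2 cKO 2. Which part of the gene the floxed allele loses is not stated in the labels or methods, and where the remaining counts come from was not tested.

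Calls required an adjusted p (Benjamini-Hochberg) under 0.05 together with a fold greater than 1.5. In edgeR's quasi-likelihood test on all 5 libraries 1 of 13601 genes was called lower (0.00735%) and 0 higher (0%). An unadjusted p below 0.05 was reached by 529 genes on the lower side (3.89%) and by 352 on the higher side (2.59%). Without Hand2 cKO 2 the same test called 50 genes lower (0.368%) and 7 higher (0.0515%), with 851 (6.26%) and 743 (5.46%) at an unadjusted p below 0.05. DESeq2 on all 5 libraries called 139 lower (1.02%) and 33 higher (0.243%). Removal of each library's length trend from the edgeR fit gave 63 lower (0.463%) and 9 higher (0.0662%). Of the 50 genes called lower without Hand2 cKO 2, 48 were called by DESeq2 on all 5 libraries and 45 with the length trend removed. All 50 lay lower in each Hand2 cKO library, cKO 2 included, than in either WT library, and the 7 higher genes lay higher in each. The WT libraries and Hand2 cKO 1 and 3 had already chosen these genes, so only Hand2 cKO 2 adds new values here. The fits compared above also share these libraries, so none of this is independent support. Over all genes tested 16.1% lay lower in this way and 16.1% higher. The 50 lower and 7 higher genes are described as having fallen or risen here, always with the fit without Hand2 cKO 2 as the test, since only 1 gene passed on all 5 libraries. Log2 fold changes with ± SE are those of all 5 libraries. Where a pair of values is set against 3, the pair is WT 3 and WT 4 and the 3 are Hand2 cKO 1, 2 and 3, in that order.

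**Figure D2:**
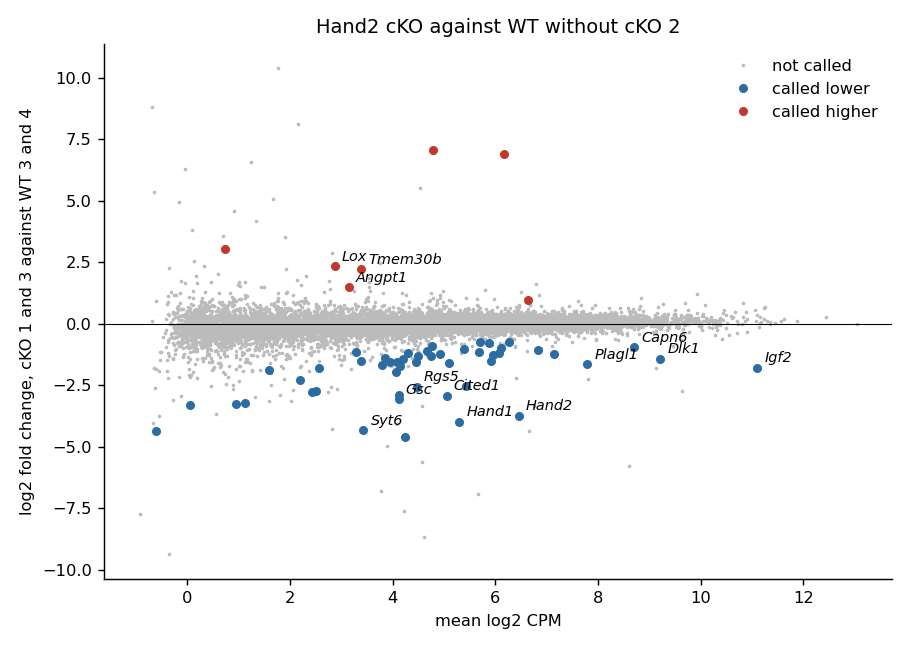
Log2 fold change of Hand2 cKO 1 and 3 against WT 3 and 4 (y axis) against mean log2 CPM (x axis) for the 13601 genes tested. Blue points are the 50 genes called lower, red points the 7 called higher and grey points genes that were not called, and most called genes lie below 0.

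Transcription factors of the distal arch were among the genes that fell. Hand1, the paralogue of Hand2 in the distal midline, measured 63.7 and 116 CPM in WT 3 and WT 4 and 6.24, 3.97 and 5.20 CPM in Hand2 cKO 1, 2 and 3. It was 17.5-fold lower, with a log2 fold change of -4.13 ± 0.33 (adjusted p = 0.0584 by edgeR). Gsc encodes Goosecoid, a homeobox factor that acts in the jaw and middle ear downstream of endothelin signalling. It measured 41.4 and 30.7 CPM in WT 3 and WT 4 and 5.32, 5.59 and 3.33 CPM in Hand2 cKO 1, 2 and 3, and its log2 fold change was -2.93 ± 0.28. Cited1, a transcriptional co-regulator that binds CBP and p300, measured 66.4 and 67.7 CPM in WT 3 and WT 4 and 9.40, 13.4 and 8.25 CPM in Hand2 cKO 1, 2 and 3, a change of -2.70 ± 0.23 on the log2 scale. Without Hand2 cKO 2 the log2 fold changes of the 3 genes were -3.97, -3.06 and -2.93. In bulk RNA fewer cells of a type and less RNA per cell cannot be told apart, for these genes and all that follow.

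Further regulators fell. Alx4, a homeobox gene of facial mesenchyme, measured 217 and 232 CPM in WT 3 and WT 4 and 97.7, 61.9 and 94.98 CPM in Hand2 cKO 1, 2 and 3 (log2 fold change -1.41 ± 0.23). Foxf1, a forkhead gene that responds to Hedgehog in oral-side mesenchyme, measured 56.5 and 63.3 CPM in WT 3 and WT 4 and 30.6, 28.8 and 28.7 CPM in Hand2 cKO 1, 2 and 3 and changed by -1.03 ± 0.12 on the log2 scale. Its mean was 49.0% of the WT mean, with little spread within either group. Its paralogue Foxf2 lay higher, with 32.1 and 33.4 CPM against 47.5, 49.3 and 46.7 CPM (log2 fold change 0.55 ± 0.12), and was not called. Tbx4, a T-box gene better known from the hindlimb, was low in all libraries and measured 5.44 and 5.58 CPM against 1.54, 0.850 and 1.49 CPM, a log2 fold change of -2.08 ± 0.32. Klf14, a zinc finger repressor, measured 4.56 and 4.78 CPM against 0.639, 0.618 and 0.336 CPM, and its log2 fold change was -3.13 ± 0.34. Pitx1, which marks the mandibular part of the arch, measured 252 and 195 CPM against 139, 182 and 129 CPM (log2 fold change -0.58 ± 0.21) and was not called. Without Hand2 cKO 2 the log2 fold changes of Alx4, Foxf1, Tbx4 and Klf14 were -1.23, -1.02, -1.87 and -3.24. Over the list of distal arch mesenchyme factors, 5 of 20 members fell and 0 rose, against 0.368% and 0.0515% of all genes tested. The list was chosen with earlier results of these data known. Its median log2 fold change was -0.28 and -0.19 without Hand2 cKO 2, against 0.012 and -0.0032 over all genes tested.

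**Figure D3:**
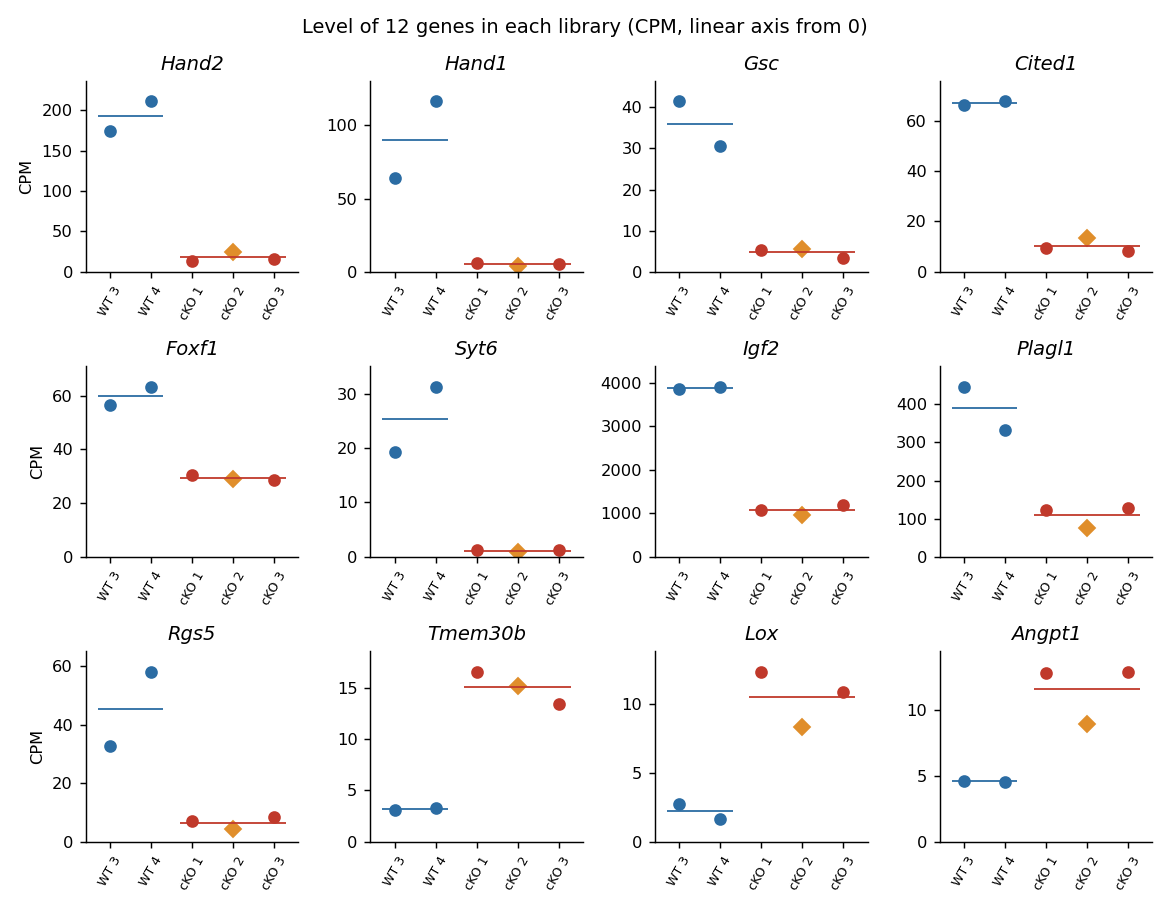
CPM (y axis, linear from 0) of 12 genes in each library (x axis), with blue points for WT, red for Hand2 cKO 1 and 3 and orange diamonds for Hand2 cKO 2; horizontal lines are group means. No gene shown has overlapping groups: 9 lie lower in all Hand2 cKO libraries and Tmem30b, Lox and Angpt1 lie higher.

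No other gene of the same class was called. Of 15 bHLH genes of the Hand, Twist, E-protein and Id groups, Hand1 and Hand2 alone were called. Twist1, a bHLH factor that can pair with Hand2, measured 196 and 155 CPM against 239.6, 295 and 199.6 CPM, and its log2 fold change of 0.48 ± 0.22 became 0.32 without Hand2 cKO 2. The part of the endothelin pathway that lies upstream of Hand2 was not called either. Ednra, the receptor, measured 63.8 and 45.6 CPM against 61.3, 39.5 and 56.6 CPM. Its ligand Edn1 was below the level needed for the test, at 0.544 and 0.714 CPM against 0.677, 1.42 and 0.767 CPM, and the WT and Hand2 cKO ranges overlapped for both. Of 11 endothelin genes tested, 2 fell, Gsc and the deleted Hand2 itself, against 0.368% of all genes. In every Hand2 cKO library 5 of the 11 lay lower, Plcb3 and Ece1 among them, and 1 higher, against 16.1% of all genes in each direction. The Dlx genes, which give arch cells their dorsal or ventral identity, had a median log2 fold change of 0.40 over 6 members, and 0.32 without Hand2 cKO 2. All 6 had a log2 fold change above 0, from 0.26 for Dlx1 to 0.46 for Dlx4, and none had an unadjusted p below 0.05. In WT 4 each of the 6 lay below WT 3, as with Dlx5 at 119.7 and 76.5 CPM against 126, 149.8 and 122 CPM, and for Dlx1 the direction turned without WT 4.

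E-boxes were read in the 250 bases before the start of genes, from RefSeq on GRCm38.p6, for 38 of the 50 genes that fell and 10153 of the 13601 tested. CATCTG or its reverse complement CAGATG stood in the promoters of 10 of the 38 (26.3%) and of 1193 of the 10153 (11.8%). Any CANNTG, which includes these 2 words, stood in 23 of 38 (60.5%) and in 6247 of 10153 (61.5%). Among all 32851 promoters of the table, 14.4% held CATCTG or CAGATG and 66.2% any CANNTG. A match is a word in the sequence and not a measured binding site, and only 1 of the 7 genes that rose had a promoter in the table. 5 of the 10 promoters are shown since their genes carry results named here. They are printed 5′ to 3′ on the strand of the gene, end at the base before the start, and have every CANNTG in capitals.
Gsc (chr12:104473237-104473486, minus strand): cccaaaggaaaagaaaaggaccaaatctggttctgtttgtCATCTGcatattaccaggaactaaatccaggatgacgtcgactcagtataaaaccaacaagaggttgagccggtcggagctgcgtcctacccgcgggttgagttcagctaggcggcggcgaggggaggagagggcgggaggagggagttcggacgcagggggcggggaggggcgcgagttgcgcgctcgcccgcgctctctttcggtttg
Plagl1 (chr10:13090582-13090831, plus strand): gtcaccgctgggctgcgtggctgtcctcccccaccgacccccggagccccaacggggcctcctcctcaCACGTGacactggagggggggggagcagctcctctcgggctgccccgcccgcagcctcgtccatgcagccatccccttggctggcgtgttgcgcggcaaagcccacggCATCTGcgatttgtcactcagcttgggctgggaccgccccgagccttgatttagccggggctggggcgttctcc
Olfml3 (chr3:103738002-103738251, minus strand): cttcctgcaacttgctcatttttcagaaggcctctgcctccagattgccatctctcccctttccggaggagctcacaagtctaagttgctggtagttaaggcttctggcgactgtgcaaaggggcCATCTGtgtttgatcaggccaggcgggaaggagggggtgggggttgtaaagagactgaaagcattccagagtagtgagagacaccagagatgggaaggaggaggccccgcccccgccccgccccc
Slc6a17 (chr3:107518019-107518268, minus strand): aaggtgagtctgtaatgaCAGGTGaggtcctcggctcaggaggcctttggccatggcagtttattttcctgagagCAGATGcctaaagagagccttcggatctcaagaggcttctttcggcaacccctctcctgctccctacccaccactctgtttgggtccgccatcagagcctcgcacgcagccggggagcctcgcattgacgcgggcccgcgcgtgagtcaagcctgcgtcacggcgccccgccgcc
Tbx4 (chr11:85896515-85896764, plus strand): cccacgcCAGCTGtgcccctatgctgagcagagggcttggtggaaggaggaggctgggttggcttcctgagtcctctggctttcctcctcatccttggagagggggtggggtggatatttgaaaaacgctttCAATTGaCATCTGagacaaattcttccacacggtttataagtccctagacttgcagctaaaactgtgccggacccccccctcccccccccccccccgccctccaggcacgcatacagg
Gsc and Olfml3 each hold 1 E-box, CATCTG. In Plagl1 and Tbx4 a CATCTG stands beside other E-boxes, and the Slc6a17 promoter, the upstream of the pair that RefSeq gives for this gene, holds CAGGTG and CAGATG.

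Imprinted genes, which are expressed from 1 parental copy and often control fetal growth, leaned lower. Of 28 tested, 9 had an unadjusted p below 0.05 on the lower side and 0 on the higher side. Over all genes tested these shares were 3.89% and 2.59%. Of the 28, 12 lay lower in every Hand2 cKO library and 0 higher, against 16.1% of all genes in each direction. The median log2 fold change of the imprinted list was -0.32, and -0.25 without Hand2 cKO 2. In that fit 13 were lower at an unadjusted p below 0.05 (6.26% of all genes) and 4 were called lower (0.368% of all genes). The summed level of the list was 16396 and 16985 CPM in the WT libraries, and it lay between 9845 and 11080.4 CPM in Hand2 cKO.

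Igf2 is a paternally expressed growth factor. It measured 3848 and 3914 CPM in WT 3 and WT 4 and 1081, 963 and 1179.7 CPM in Hand2 cKO 1, 2 and 3, a 3.61-fold difference with a log2 fold change of -1.85 ± 0.16 (95% interval -2.26 to -1.45; adjusted p = 0.0584 by edgeR). Plagl1, a zinc finger factor known to activate other imprinted genes, measured 446 and 332 CPM in WT 3 and WT 4 and 122, 76.1 and 127 CPM in Hand2 cKO 1, 2 and 3 and changed by -1.84 ± 0.27 on the log2 scale. Dlk1, a Notch-like growth regulator, measured 811 and 992 CPM in WT 3 and WT 4 and 336, 474 and 342 CPM in Hand2 cKO 1, 2 and 3, with a log2 fold change of -1.23 ± 0.22. Zim1, a zinc finger gene of the Peg3 cluster, measured 101 and 108 CPM in WT 3 and WT 4 and 33.4, 19.1 and 41.0 CPM in Hand2 cKO 1, 2 and 3 (log2 fold change -1.75 ± 0.31). All 4 genes fell, with log2 fold changes of -1.79, -1.65, -1.42 and -1.50 without Hand2 cKO 2.

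Rtl1, a retrotransposon-derived gene next to Dlk1, measured 13.5 and 16.3 CPM against 5.96, 7.73 and 7.08 CPM (log2 fold change -1.10 ± 0.20). Usp29, which shares its cluster with Zim1 and Peg3, measured 68.2 and 73.1 CPM against 46.6, 41.3 and 46.9 CPM (log2 fold change -0.65 ± 0.13), and Magel2, which lies in a different cluster, that of the Prader-Willi region, measured 151 and 189 CPM against 74.6, 81.0 and 97.5 CPM (log2 fold change -1.01 ± 0.19). DESeq2 on all 5 libraries called 7 of the 28 imprinted genes lower, these 3 included, against 1.02% of all genes. These 3 were not called by edgeR.

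No other member of the insulin-like growth factor axis was called. Igf2r, which takes up and degrades Igf2, measured 251 and 240.5 CPM against 188, 108 and 221 CPM. Its log2 fold change of -0.51 ± 0.31 became -0.27 without Hand2 cKO 2. Igf1, the other ligand, measured 44.7 and 33.7 CPM against 68.7, 37.2 and 64.7 CPM, so 2 of 3 Hand2 cKO libraries lay above both WT libraries. Of 17 genes of the axis tested, 6 lay lower in every Hand2 cKO library, Igf2 and Igf2r among them, against 16.1% of all genes.

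**Figure D4:**
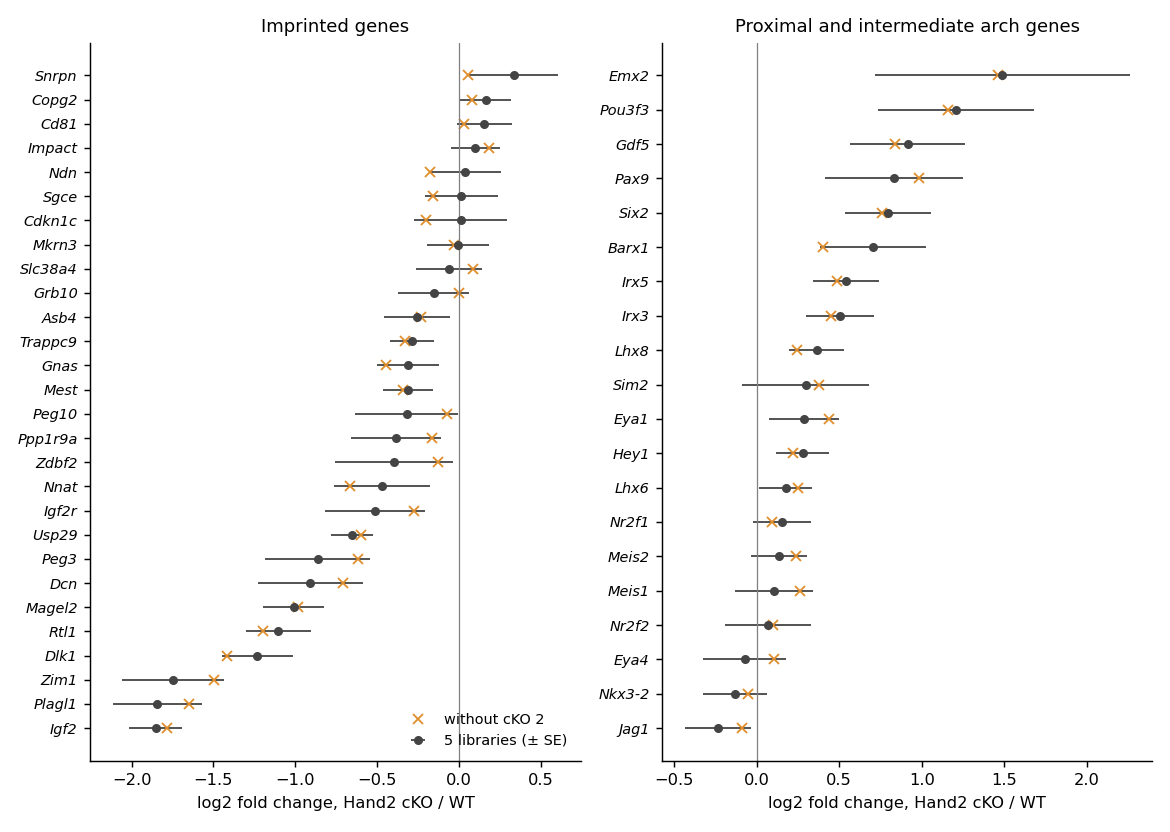
Log2 fold change of Hand2 cKO against WT (x axis) for the 28 tested imprinted genes (left) and 20 of the 21 tested proximal and intermediate arch genes (right); circles with ± SE bars are the fit on 5 libraries and crosses the fit without Hand2 cKO 2. Igf2 (-1.85), Plagl1 (-1.84) and Zim1 (-1.75) are lowest on the left, and most genes on the right lie above 0.

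Genes of the proximal and intermediate arch, which form the upper jaw, the joint region and the sides of the mandible, leaned the other way. Of 21 tested, 18 had a log2 fold change above 0. In every Hand2 cKO library 10 lay higher and 1 lower, against 16.1% of all genes in each direction. At an unadjusted p below 0.05, 6 were higher and 0 lower, against 2.59% and 3.89% of all genes. The median log2 fold change was 0.30, and 0.38 without Hand2 cKO 2. Six2, a homeobox gene of arch mesenchyme, measured 32.4 and 18.97 CPM against 49.7, 46.2 and 38.3 CPM (log2 fold change 0.79 ± 0.26) and was not called. For Pou3f3, a marker of the upper part of the arch, values were 3.38 and 1.07 CPM against 5.06, 5.49 and 5.28 CPM, with a log2 fold change of 1.21 ± 0.47. Gdf5, a growth factor of forming joints, read 1.98 and 1.03 CPM against 2.99, 3.12 and 2.57 CPM (log2 fold change 0.91 ± 0.35), near the bottom of the range that was tested. The Iroquois genes Irx3 and Irx5 had log2 fold changes of 0.51 ± 0.21 and 0.54 ± 0.20. WT 4 was the lowest of the 5 libraries in each of these 5 genes.

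A small set of genes rose. Tmem30b, a subunit of membrane lipid flippases, measured 3.11 and 3.26 CPM in WT 3 and WT 4 and 16.5, 15.2 and 13.4 CPM in Hand2 cKO 1, 2 and 3. It was 4.73-fold higher with a log2 fold change of 2.24 ± 0.19. Lox, the enzyme that crosslinks collagen and elastin, measured 2.78 and 1.696 CPM in WT 3 and WT 4 and 12.3, 8.32 and 10.8 CPM in Hand2 cKO 1, 2 and 3 (log2 fold change 2.21 ± 0.32). Angpt1, the ligand of the endothelial receptor Tie2, measured 4.64 and 4.51 CPM in WT 3 and WT 4 and 12.8, 8.91 and 12.9 CPM in Hand2 cKO 1, 2 and 3 (log2 fold change 1.33 ± 0.24). Cbln2, a secreted synapse organiser named here after its values were seen, measured 0.330 and 0.312 CPM against 2.69, 1.88 and 2.64 CPM. The log2 fold changes of Tmem30b, Lox and Angpt1 without Hand2 cKO 2 were 2.23, 2.34 and 1.48. A ribosomal protein pseudogene and a numbered gene model also rose.

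Other genes were higher in all 3 Hand2 cKO libraries without being called by edgeR. Foxl2, a forkhead gene of the arch and eyelid mesenchyme, measured 1.63 and 0.804 CPM against 6.35, 4.10 and 5.61 CPM (log2 fold change 2.10 ± 0.40), and its relatives Foxc1 and Foxl1 had log2 fold changes of 1.11 ± 0.34 and 0.71 ± 0.22. Gdnf, a neurotrophic factor, was low at 1.05 and 0.580 CPM against 3.33, 2.37 and 2.25 CPM. Mab21l1 measured 94.1 and 76.1 CPM against 143, 139 and 139 CPM, and Prickle1, a planar polarity gene, 24.5 and 21.5 CPM against 38.2, 34.4 and 38.1 CPM. Ptx3, a secreted pentraxin, had a log2 fold change of 1.24 ± 0.28. Slc15a2, a peptide transporter, spread widely at 1.11 and 2.41 CPM against 7.74, 6.34 and 17.4 CPM. Tmem70, Ift57 and Yy2, with functions in ATP synthase assembly, ciliary transport and transcription, had log2 fold changes of 1.06 ± 0.19, 0.71 ± 0.16 and 1.44 ± 0.32. DESeq2 on all 5 libraries called Foxl2, Mab21l1, Prickle1, Ptx3, Gdnf, Slc15a2, Tmem70, Ift57 and Yy2 higher.

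Several cell-surface and signalling genes fell. Syt6, a synaptotagmin of vesicle fusion, measured 19.3 and 31.3 CPM in WT 3 and WT 4 and 1.297, 0.824 and 1.22 CPM in Hand2 cKO 1, 2 and 3. It was 22.7-fold lower, at a log2 fold change of -4.49 ± 0.32 (adjusted p = 0.0584 by edgeR). Gpr50, a relative of the melatonin receptors without a known ligand, measured 74.9 and 94.2 CPM in WT 3 and WT 4 and 12.1, 16.4 and 17.7 CPM in Hand2 cKO 1, 2 and 3 (log2 fold change -2.46 ± 0.21). Dgkk, a diacylglycerol kinase, measured 29.8 and 44.7 CPM in WT 3 and WT 4 and 4.85, 2.71 and 5.28 CPM in Hand2 cKO 1, 2 and 3 (log2 fold change -3.12 ± 0.34). Rgs5, a brake on G-protein signalling that marks pericytes, measured 32.6 and 58.0 CPM in WT 3 and WT 4 and 6.97, 4.33 and 8.39 CPM in Hand2 cKO 1, 2 and 3 (log2 fold change -2.79 ± 0.36). Slc6a17, a vesicular transporter of neutral amino acids, measured 25.9 and 36.1 CPM against 8.76, 5.36 and 7.29 CPM (log2 fold change -2.12 ± 0.27). Sdpr, a coat protein of caveolae, measured 10.6 and 11.9 CPM against 1.37, 1.11 and 1.89 CPM, and Cyp2s1, a cytochrome P450, measured 9.82 and 10.98 CPM against 2.93, 2.68 and 3.05 CPM. Olfml3, a secreted olfactomedin-like protein, measured 38.0 and 37.5 CPM against 16.4, 16.5 and 18.4 CPM, and Pcp4l1 measured 7.26 and 9.91 CPM against 1.90, 2.29 and 1.63 CPM. Without Hand2 cKO 2 the log2 fold changes of Syt6, Gpr50, Dgkk, Rgs5 and Slc6a17 were -4.32, -2.51, -2.88, -2.56 and -1.95.

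Among 16 synaptotagmin-type genes tested, edgeR called Syt6 alone, and DESeq2 on all 5 libraries called also Esyt1 at 27.1 and 30.5 CPM against 18.1, 15.8 and 17.3 CPM and Syt17 at 3.24 and 3.79 CPM against 0.977, 1.42 and 1.68 CPM. The median of the synaptotagmin list was -0.20, and -0.29 without Hand2 cKO 2. Of 11 RGS genes edgeR called Rgs5 alone, and DESeq2 called Rgs4 lower and Rgs2 higher as well. Rgs4 had a log2 fold change of -2.41 ± 0.47 at 2.64 and 4.196 CPM against 0.996, 0.386 and 0.504 CPM, and Rgs2 went the other way with 1.01 ± 0.25.

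Some of the genes that fell lie close to each other. Syt6 and Olfml3 are 76653 bp apart on chromosome 3 with no tested gene between them. Slc6a17 and Ubl4b are 35669 bp apart on the same chromosome, again with no tested gene between, and Ubl4b, a ubiquitin-like gene, had 71 and 39 counts in WT 3 and WT 4 and 5, 0 and 2 in Hand2 cKO 1, 2 and 3. Axl, a receptor tyrosine kinase at 79.7 and 83.4 CPM against 45.7, 36.8 and 48.6 CPM, lies 13770 bp from Cyp2s1 on chromosome 7, also with no tested gene between. Nhsl2 lies 155326 bp from Cited1 on chromosome X, with 3 tested genes between them. Chromosome X held 8 of the 49 fallen genes with a position (16.3%) and 478 of 13573 tested genes with one (3.52%). These 8 were Cited1, Gpr50, Dgkk, Nrk, Capn6, Itm2a, Nhsl2 and Zcchc5, with Nrk at 67.3 and 53.7 CPM against 19.2, 8.99 and 21.2 CPM. Axl, Ubl4b and the X-linked genes other than Cited1, Gpr50 and Dgkk are named after their values were seen. Without Hand2 cKO 2, WT 4 is the only library with a high Y-linked level, and the part of embryo sex in these calls was not tested.

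Matrix genes leaned lower, with few calls. Of 39 glycoproteins and proteoglycans tested, 15 lay lower in every Hand2 cKO library and 4 higher, against 16.1% of all genes in each direction. At an unadjusted p below 0.05, 6 were lower and 3 higher, against 3.89% and 2.59% of all genes. Postn, periostin, a matrix protein of periosteum and tooth ligament, fell and measured 41.0 and 34.5 CPM in WT 3 and WT 4 and 13.7, 7.497 and 12.1 CPM in Hand2 cKO 1, 2 and 3 (log2 fold change -1.77 ± 0.28, and -1.56 without Hand2 cKO 2). Eln, elastin, measured 8.52 and 9.51 CPM against 5.04, 3.92 and 5.20 CPM (log2 fold change -0.93 ± 0.21). Fbln5, an elastin-binding fibulin, was higher at 14.5 and 7.10 CPM against 28.3, 24.8 and 20.8 CPM (log2 fold change 1.18 ± 0.34), with WT 4 lowest. Fbln2 and Bgn had log2 fold changes of -0.54 ± 0.17 and -0.44 ± 0.13.

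Of 36 collagens tested, 9 were lower at an unadjusted p below 0.05 and 0 higher, against 3.89% and 2.59% of all genes. Without Hand2 cKO 2 these were 10 and 1, against 6.26% and 5.46%. The collagen median was -0.15, with 25 genes below 0 and 11 above. Leaving out Hand2 cKO 2 gave -0.12, with 21 below and 15 above, and correcting for transcript length gave -0.052. Relative to WT, Hand2 cKO 2 had the lowest collagen median, -0.45 against -0.12 and -0.073 in Hand2 cKO 1 and 3. Col9a2, a chain of the type IX collagen of cartilage, was the collagen that fell. It measured 29.8 and 28.8 CPM in WT 3 and WT 4 and 13.0, 13.9 and 12.5 CPM in Hand2 cKO 1, 2 and 3 (log2 fold change -1.16 ± 0.14, and -1.20 without Hand2 cKO 2). The partner chain Col9a3 measured 12.4 and 12.5 CPM against 7.27, 8.84 and 7.24 CPM (log2 fold change -0.68 ± 0.18). Col6a3, a long transcript, moved from -1.17 to -0.86 when Hand2 cKO 2 was left out. ADAM and ADAMTS proteases had 6 of 29 lower at an unadjusted p below 0.05 and 0 higher, against 3.89% and 2.59% of all genes. None was called by edgeR. Without Hand2 cKO 2, 8 were lower and 1 higher at the same unadjusted level, against 6.26% and 5.46% of all genes. The protease median was -0.23, with 24 genes below 0 and 5 above. Leaving out Hand2 cKO 2 gave -0.12, with 17 below and 12 above, and correcting for transcript length gave -0.15. Relative to WT, the protease median was -0.61 in Hand2 cKO 2 and -0.17 and -0.058 in Hand2 cKO 1 and 3. DESeq2 called Adam23, at 26.03 and 22.5 CPM against 12.2, 7.47 and 13.1 CPM. Among cartilage and joint regulators, Sox9 had a log2 fold change of 0.58 ± 0.20, Sox8 of -0.95 ± 0.19 and Maf of -1.11 ± 0.31, none of which passed in edgeR, while DESeq2 called Sox8 lower. The list's median was 0.11, and 0.17 without Hand2 cKO 2, and Col9a2 was the only one of its 22 members that edgeR called.

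Axon guidance genes, which also steer crest cells and vessels, leaned lower, and edgeR called none of them while DESeq2 called Epha3. Of 50 tested, 22 lay lower in every Hand2 cKO library and 1 higher, against 16.1% of all genes in each direction. The median was -0.19, and -0.13 without Hand2 cKO 2. Epha3, an ephrin receptor, measured 58.5 and 40.9 CPM against 21.3, 10.8 and 23.0 CPM (log2 fold change -1.44 ± 0.35). The netrin receptors Unc5c and Unc5b had log2 fold changes of -1.18 ± 0.34 and -0.67 ± 0.17, and Plxna4, a semaphorin receptor, of -1.11 ± 0.36. For Epha3, Unc5c and Plxna4 Hand2 cKO 2 was the lowest library, and leaving it out gave -1.18, -0.91 and -0.84.

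The BMP, Wnt, FGF, Hedgehog, Notch and retinoic acid lists held no gene called by edgeR, and their medians lay between -0.12 (Hedgehog) and 0.09 (retinoic acid). The same 6 medians without Hand2 cKO 2 lay between -0.055 (BMP) and 0.10 (retinoic acid). BMP genes, which pattern the distal midline, had a median of -0.0099 over 24 members. DESeq2 on all 5 libraries called 1 BMP gene lower and 1 higher. Gdf6, a BMP-family ligand, measured 23.3 and 42.1 CPM against 11.9, 12.8 and 13.0 CPM (log2 fold change -1.38 ± 0.26), and Bmp4 23.9 and 36.2 CPM against 23.3, 25.1 and 25.1 CPM. Msx1, a target of BMP, measured 237 and 313 CPM against 225, 249 and 198 CPM. Gdf10, another ligand of the family, was nearly absent from WT, with 3 and 0 counts in WT 3 and WT 4 and 75, 53 and 52 in Hand2 cKO 1, 2 and 3. The inhibitory Smad6 had a log2 fold change of -0.44 ± 0.17 and the receptor Bmpr1b of 0.79 ± 0.39.

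Wnt genes had a median of -0.0036 over 35 members, and 0.067 without Hand2 cKO 2, but secreted antagonists were among those with the smallest p. Notum, which inactivates Wnt ligands, measured 10.4 and 15.2 CPM against 5.28, 6.16 and 4.25 CPM (log2 fold change -1.29 ± 0.26). Dkk1 and Dkk2, which block the co-receptor, measured 18.98 and 32.1 CPM against 12.2, 14.5 and 11.99 CPM (Dkk1) and 15.7 and 16.4 CPM against 11.4, 8.71 and 10.1 CPM (Dkk2), and Kremen1, the receptor of Dkk proteins, had a log2 fold change of -0.65 ± 0.18. Sfrp2, a Wnt-binding protein, was higher at 52.4 and 40.8 CPM against 82.2, 82.6 and 70.0 CPM (log2 fold change 0.75 ± 0.17), as was Rspo3, an agonist, at 2.93 and 2.90 CPM against 5.79, 5.38 and 4.68 CPM. DESeq2 called Notum lower and Sfrp2 higher.

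Genes of retinoic acid turnover stood on both sides. Cyp26b1, which degrades retinoic acid, measured 22.7 and 20.8 CPM against 10.1, 5.85 and 8.39 CPM (log2 fold change -1.42 ± 0.26), and Cyp26a1, which also degrades it, had a log2 fold change of 1.01 ± 0.38. Aldh1a3, which makes it, measured 0.796 and 0.937 CPM against 2.65, 2.73 and 2.49 CPM (log2 fold change 1.60 ± 0.27). DESeq2 called Cyp26b1 lower and Aldh1a3 higher, and edgeR called neither. In the FGF list Spry2, a feedback inhibitor, measured 21.8 and 20.6 CPM against 28.2, 30.9 and 30.6 CPM and the receptor Fgfr3 13.3 and 16.0 CPM against 9.998, 6.93 and 11.01 CPM, with log2 fold changes of 0.50 ± 0.14 and -0.65 ± 0.25. Hedgehog components and targets had a median of -0.12, and -0.0072 without Hand2 cKO 2. Gas1, a co-receptor, and Scube1 had log2 fold changes of 0.55 ± 0.21 and -0.70 ± 0.24, and the target Gli1 measured 109 and 121 CPM against 106, 94.3 and 102 CPM. The Notch list had a median of -0.021 over 16 members, and 0.01 without Hand2 cKO 2.

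Several families differed between the fits with and without Hand2 cKO 2. Cytoplasmic ribosomal protein genes, which are short, had a median of 0.49 on 5 libraries and 0.082 without Hand2 cKO 2, with summed levels of 36384 and 45928 CPM in the WT libraries and 46323, 86225 and 40009.6 CPM in Hand2 cKO 1, 2 and 3. Nuclear respiratory chain genes went from 0.36 to 0.021 and proteasome genes from 0.39 to 0.10. Clustered protocadherins, adhesion proteins of the nervous system with long transcripts, went from -0.60 to -0.28. With the length trend removed the ribosomal median was 0.13 and that of the protocadherins -0.50. Mitochondrially encoded genes kept a median of 0.44 in both fits, with the length trend removed 0.16, and WT 4 was lowest at 13255 CPM. Cell cycle genes had a median of 0.18, and 0.082 without Hand2 cKO 2. In every Hand2 cKO library 16 of 37 lay higher, against 16.1% of all genes. The p53 and apoptosis genes had a median of 0.041, and 0.013 without Hand2 cKO 2. At an unadjusted p below 0.05 there were 0 lower and 0 higher on 5 libraries. Without Hand2 cKO 2 there were 0 lower and 1 higher.

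**Figure D5:**
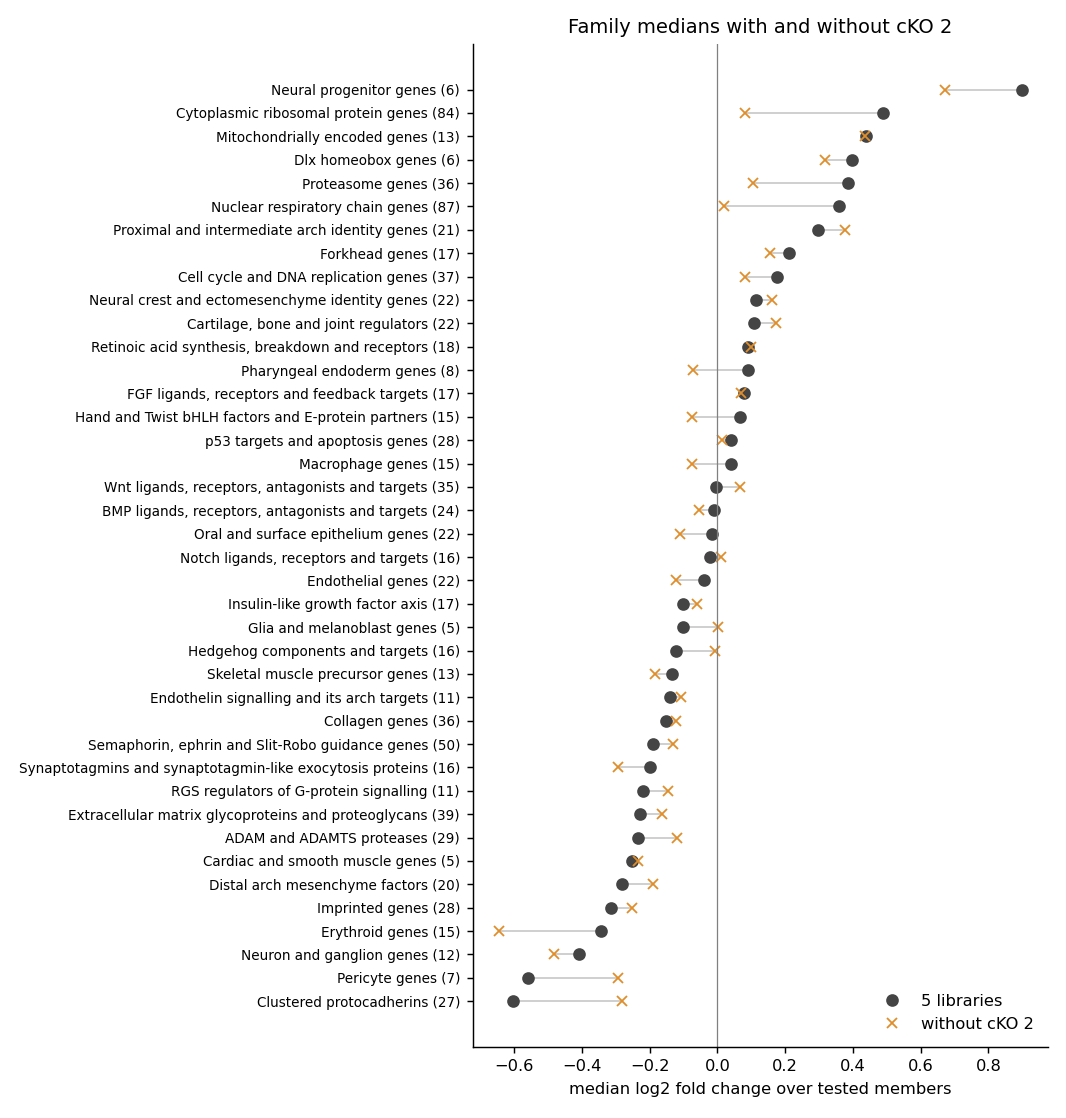
Median log2 fold change of Hand2 cKO against WT (x axis) over the tested members of 40 gene lists (y axis, number tested in brackets); circles are the fit on 5 libraries and crosses the fit without Hand2 cKO 2. Ribosomal protein, respiratory chain and proteasome lists move towards 0 without Hand2 cKO 2, and the imprinted and proximal arch lists stay on their side of 0.

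Markers of the cell types in a dissected MNP were examined beside these results. The crest mesenchyme list had a median of 0.12 over 22 members, and 0.16 without Hand2 cKO 2. Prrx1, 1 of its members, measured 642 and 504 CPM against 699, 516 and 687 CPM. At an unadjusted p below 0.05, 4 members were higher and 0 lower, against 2.59% and 3.89% of all genes. In every Hand2 cKO library 5 lay higher and 3 lower, against 16.1% of all genes in each direction. DESeq2 on all 5 libraries called 1 member higher (0.243% of all genes) and 0 lower (1.02%). Oral and surface epithelium summed to 647 and 655 CPM in the WT libraries and between 608 and 657 CPM in Hand2 cKO, and endothelial genes to 568 and 648 against 557 to 573 CPM. Macrophage and pharyngeal endoderm lists had medians of 0.04 and 0.089, which turned to -0.075 and -0.073 without Hand2 cKO 2.

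Pericyte genes were lower in every Hand2 cKO library for 7 of 7 members, against 16.1% of all genes. Their median was -0.56, and -0.29 without Hand2 cKO 2, and Rgs5 was the only called member. Skeletal muscle precursors had a median of -0.13 over 13 members, and -0.18 without Hand2 cKO 2. Neuron and ganglion genes had a median of -0.41 over 12 members, and -0.48 without Hand2 cKO 2. Of the 12, 9 had a log2 fold change below 0 and 3 above it. The list summed to 220 and 268 CPM in WT 3 and WT 4 and to 257, 270 and 247 CPM in Hand2 cKO 1, 2 and 3. Its lowest members were Ntrk2, a neurotrophin receptor, at 6.72 and 9.24 CPM against 2.67, 2.19 and 2.09 CPM, and Dcx. Dcx, a marker of young neurons, measured 7.51 and 5.98 CPM against 2.07, 0.593 and 1.85 CPM. Neural progenitor genes, 6 of which were tested, summed to 38.3 and 20.3 CPM in WT libraries and between 48.7 and 58.5 CPM in Hand2 cKO. Among 5 cardiac and smooth muscle genes tested, Hcn4, a pacemaker channel, measured 5.80 and 6.52 CPM against 2.12, 1.57 and 3.17 CPM and Acta2, smooth muscle actin, 1.86 and 1.21 CPM against 2.61, 4.25 and 2.47 CPM. Erythroid genes followed single libraries rather than genotype, with 2759 and 12572 CPM in WT 3 and WT 4 against 4025, 8082 and 3856 CPM in Hand2 cKO 1, 2 and 3. The part of any of these cell types in the changes above was not tested.

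The remaining fallen genes named here were chosen after their values were seen. Capn6, a calpain without protease activity, was among the most abundant, at 594 and 646 CPM against 314, 189 and 327 CPM (log2 fold change -1.17 ± 0.26). Itm2a, a membrane protein of early cartilage and muscle, measured 99.8 and 94.5 CPM against 43.4, 54.2 and 42.5 CPM, and Kcp, a chordin-like modulator of BMP, 75.4 and 80.9 CPM against 33.2, 27.7 and 38.3 CPM. Tshz2 and Cux2, transcription factors, measured 23.5 and 30.1 CPM against 8.87, 5.18 and 9.40 CPM (Tshz2) and 40.1 and 46.8 CPM against 15.8, 12.2 and 19.7 CPM (Cux2). Tle2, a Groucho co-repressor, had a log2 fold change of -1.40 ± 0.18 and Lbh, a cofactor of limb and heart, of -0.72 ± 0.11. Cacna1d, a calcium channel, Pmp22, a myelin protein, Synpo2, an actin-binding protein, and Galnt16, a glycosyltransferase, had log2 fold changes of -1.75 ± 0.30, -1.55 ± 0.22, -1.72 ± 0.24 and -1.36 ± 0.19.

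H2afv, which encodes a histone H2A.Z variant, also fell. It measured 146 and 154 CPM in WT 3 and WT 4 and 73.4, 122 and 70.6 CPM in Hand2 cKO 1, 2 and 3 (log2 fold change -0.76 ± 0.27, and -1.07 without Hand2 cKO 2), and DESeq2 on all 5 libraries did not call it. The RefSeq gene table lists the Wnt1-Cre transgene 11Rth among the synonyms of this gene. On plain CPM H2afv was 57.2 in the library of the other Wnt1-Cre mutant of the series, which lacks Gli2 and Gli3 in the crest, against 152 and 162 in WT 3 and 4. E2f1, which the table links to another Wnt1-Cre line, 2Sor, ranged from 48.9 to 60.4 CPM over the 5 libraries and was 52.6 CPM in that mutant. Transgene and loss of Hand2 cannot be told apart for H2afv in the 5 libraries.

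Among the 7 genes that rose, 2 are copies whose estimated counts can be shared with near-identical sequences. Rps24-ps3, a ribosomal protein pseudogene, measured 0.0582 and 0.625 CPM against 38.2, 66.9 and 31.3 CPM, and 0.157 plain CPM in the Gli2/3 mutant library. Gm8730 measured 0.116 and 1.74 CPM against 86.8, 193 and 79.4 CPM, and 156 plain CPM in that library. The values of both are uncertain, and no fold is given for them.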

How the data were processed

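Polyadenylated RNA from MNPs of CD1 embryos at embryonic day 10.5 was sequenced as paired ends, aligned to mm10 and quantified per transcript in Strand NGS by the authors. The authors deposited expected counts (estimated counts that need not be whole) for 105129 transcripts in each library, and between 47.7% and 56.8% of all values, zeros included, differed from a whole number by more than 0.01. Their comparisons were made with DESeq2, per the methods and the processing notes. Tool versions were not given in the sources used here. The methods and the series record name different sequencers.

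Transcript counts were summed by gene symbol and rounded to whole numbers. The plan had assumed whole counts. Genes with at least 1 CPM in at least 2 of 5 libraries were kept, with TMM scaling, and Hand2 cKO was tested against WT by edgeR's quasi-likelihood test (edgeR 4.0.16 in R 4.3.3, residual degrees of freedom 3). CPM in the text are scaled by TMM factors unless called plain. Adjusted p-values are Benjamini-Hochberg values over the 13601 genes. DESeq2 1.42.0, limma 3.58.1 (voom with sample quality weights), other scalings and filters and the omission of each library were tried as alternatives. The procedure was tested on simulated data. Positions are from GENCODE M21 (mm10), in which 103723 of the 105129 transcripts were found. A count of up to 3 in a library was treated as at the floor, which covers counting error only. The strand setting of the counting is not given, so reads of overlapping genes on opposite strands could not be told apart. Replicates differed by more than counting noise, with a chi-square per degree of freedom of 24.0 or more.

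Named genes were Hand2, called genes, the 15 genes per direction with the smallest p among those with a fold above 1.5, a mean log2 CPM of at least 1 and groups that do not overlap (numbered models, pseudogenes and ribosomal protein genes left out), up to 6 members of each list with the smallest p, any member of lists of 10 or fewer, ligands and receptors of pathways, and defining markers. Members and lists were chosen with earlier results of these data known. The Gli2/3 mutant library was used only where it is named, and the other 4 samples were not analysed here. Part of what the rules pick out is not reported here.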

Additional observations from a re-analysis of the deposited data

How the results depend on the processing

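The number of called genes depended on the processing. Against 1 lower and 0 higher, removal of the length trend gave 63 and 9, DESeq2 139 and 33, limma-voom 132 and 19, and no filter on low counts 40 and 6. The filterByExpr filter gave 2 lower and 0 higher. Leaving out 1 library gave between 0 and 50 genes lower and between 0 and 7 higher: 50 and 7 without Hand2 cKO 2, 17 and 7 without Hand2 cKO 3, and 0 and 2 without WT 4. These were largely different genes. Of the 17 and 7 without Hand2 cKO 3, 8 and 1 were among those called without Hand2 cKO 2. Of the 2 higher without WT 4, 0 were. DESeq2 without Hand2 cKO 2, an alternative chosen after seeing the data, gave 196 and 59. The log2 fold change of Hand2 was -3.51 with the length trend removed, -3.42 by DESeq2, -3.79 by limma-voom, -3.40 without a filter and -3.74 by DESeq2 without Hand2 cKO 2, all past the threshold, and lay between -3.74 and -3.25 when 1 library was left out. It passed without Hand2 cKO 2 and without Hand2 cKO 3. Of 114 genes examined under all alternatives, 1 changed direction in 1 of them: Dlx1 was at -0.11 without WT 4, within a range of -0.11 to 0.74 when 1 library was left out. The cause was not tested. Other scalings (RLE, upper quartile), a robust prior and a fit with all 6 libraries left each of the 114 on its side of the threshold. Of the 40 gene lists, 15 counted as moved from the main fit without WT 3 and 15 without WT 4. Without Hand2 cKO 1, 2 and 3 the numbers were 6, 7 and 7. No paired analysis was possible because the groups share only replicate number 3. Depth limits genes with few counts, and with 2 WT libraries the spread between WT embryos rests on 1 difference.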
